A study of Hordeum vulgare with 2 samples.

Results

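miR444 is a microRNA family of grasses. In plants a microRNA pairs with a target RNA over most of its length, and the Argonaute protein that carries it cuts the target opposite bases 10 and 11 of the microRNA. In rice the best known targets of miR444 are MIKC-type MADS-box genes, a class of transcription factors, and the miR444 precursors are transcribed from the opposite strand of such genes. In rice the family has been tied to nitrate signalling and tillering. Degradome sequencing collects the 5′ ends of uncapped RNA fragments, which is where such cuts would show.

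Barley shoots of 2 cultivars, ZD9 and XZ153, were sequenced as 1 degradome library each. The study grew seedlings in hydroponics at 0.01 mM or 1 mM potassium, and the labels do not say which level either library came from. No mutant or transgenic plants were labelled. The members described here are the records whose small RNA name holds miR444, in any case and with no further digit: 375 of 17485 records in the ZD9 list and 1002 of 40424 in the XZ153 list, together 1377 of 57909. They fall on 210 of 2963 genes in ZD9 and on 583 of 9317 genes in XZ153 once isoforms are merged.

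A record pairs 1 small RNA with 1 position of 1 transcript. Only 330 of the 375 ZD9 records carry values, on 178 genes, because the values of that list stop partway through the transcript IDs. In the range of IDs that both lists cover, XZ153 has 182 miR444 records (156.5 to 210.4, exact 95% Poisson interval) on 116 genes, against 330 (295.4 to 367.6) in ZD9. Over all small RNA names that range holds 8350 XZ153 records and 15544 ZD9 records. The larger number in ZD9 was thus not particular to miR444. The XZ153 read column was not used, the depth of both libraries is unknown, and with 1 library per cultivar no difference between cultivars was tested. All intervals below are exact Clopper-Pearson 95% intervals unless named otherwise. Where a count is 0, the share it allows is taken as 3 counts of the total instead. Intervals and limits cover counting error only, and they are too narrow where isoforms of a gene repeat a cut. The gene IDs have no annotation in the sources used here, so no target is given a name or a function, and positions are counted along the transcript.

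The 13 small RNA names are printed first because the family is defined by its sequences. Each is written 5′ to 3′ as deposited, with the seed (bases 2 to 8) in capitals. The 7 mature names, written with -miR, are these.
hvu-miR444a: uUGCUGCCucaagcuugcugc
hvu-miR444b: uGCAGUUGcugucucaagcuu
osa-miR444f_1ss9TC: uGCAGUUGcugccucaagcuu
osa-miR444a-3p.2_L+2: aAUGCAGUugcugccucaagcuu
osa-miR444b.1: uGUUGUCUcaagcuugcugcc
osa-miR444b.1_L-3_1ss12GT: uGUCUCAAucuugcugcc
osa-miR444d.3_2ss18GT21GT: uUGUGGCUuucuugcaauuuu

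The 6 names of hairpin arms, written with -MIR, are these; the last was listed in XZ153 alone.
hvu-MIR444b-p5: aGUUGUGCaguugcugucuca
osa-MIR444b-p5_2ss18CT19AT: uUUUCUUGcaaguuguguu
hvu-MIR444b-p3: uGAGGCAAcaacugcauuacu
hvu-MIR444b-p3_1ss17TG: uGAGGCAAcaacugcaguacu
osa-MIR444c-p3: cGGCAAGCuagagacagcaac
osa-MIR444c-p3_1ss15CT: cGGCAAGCuagagauagcaac

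The names are not 1 sequence family in the sense of a shared seed: they hold 10 distinct seeds. hvu-miR444b and osa-miR444f_1ss9TC share the seed GCAGUUG and differ by U12C, counted from the 5′ end of hvu-miR444b. Both hvu-MIR444b-p3 names share GAGGCAA and differ by U17G, and both osa-MIR444c-p3 names share GGCAAGC and differ by C15U. osa-miR444b.1_L-3_1ss12GT lacks the first 3 bases of osa-miR444b.1 and carries G12U, so its seed is a different one. The mature names overlap in frame shifts instead: 5 of them hold the stretch CUCAAGCUU, which starts at base 7 in osa-miR444b.1, base 8 in hvu-miR444a, base 13 in hvu-miR444b and osa-miR444f_1ss9TC, and base 15 in osa-miR444a-3p.2_L+2. A shift of the frame moves the predicted cut by the same number of bases on any target that holds the complement.

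Linked by shared runs of at least 9 bases, the names form 4 groups. The group of 7 names around that stretch, which also takes in osa-miR444b.1_L-3_1ss12GT and the arm hvu-MIR444b-p5, supplied 183 (55.5%) of the ZD9 records and 597 (59.6%) of the XZ153 records. osa-miR444d.3_2ss18GT21GT and the arm osa-MIR444b-p5_2ss18CT19AT, which share no run of that length with the 7, supplied 144 (43.6%) and 391 (39.0%). The groups of p3 names supplied 3 ZD9 records and 14 XZ153 records between them. Mature names made up 238 of the ZD9 records on 130 genes and 681 of the XZ153 records on 402 genes. Hairpin-arm names made up 92 records on 53 genes and 321 records on 200 genes.

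The deposited category ranks the reads at a position within its transcript, from 0, the highest position, to 4, a single read. Support is used here for records in categories 0, 1 or 2 whose deposited p-value, unadjusted and computed within 1 library, is at most 0.05. In ZD9 0 of 330 miR444 records were supported, which allows a share of up to 0.909%, beside 0.695% of all records. The lowest p of any miR444 record there was 0.476. In XZ153 2 of 1002 records on 2 genes were supported, a share of 0.200% (0.0242 to 0.719), beside 0.675% of all records. The share allowed in ZD9 and the interval in XZ153 both take in the share of all records, so no difference from it was detectable. Without regard to category, p was at most 0.05 for 0 ZD9 records, beside 0.914% of all records, and for the same 2 XZ153 records, beside 1.03%. The XZ153 interval given above lies below 1.03%. In ZD9 the limit of 0.909% lies just below 0.914%, while the exact upper bound for 0 of 330, 1.11%, lies above it.

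Both supported sites belong to mature names, lie beyond the IDs with values in ZD9, and are shown because they are the best supported of the family. Sites are written 5′ to 3′ along the transcript, with paired bases (Watson-Crick or G:U) in capitals.
HORVU7Hr1G011830 isoform 5, osa-miR444d.3_2ss18GT21GT: gcGGUUGCAGGAAAuGCCACAG
HORVU3Hr1G095300 isoform 1, hvu-miR444a: GCAGCAAGCcggGAGGCGGCAG

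The HORVU7Hr1G011830 site spans positions 515 to 536 with the predicted cut at 526. It was in category 1 with a p of 0.0161, an Allen score of 6.5 and a minimum free energy ratio of 0.830. The Allen score is a mismatch penalty, lower for better pairing, and the ratio sets the site's folding energy against that of a perfect match. All 7 seed bases were Watson-Crick paired, and bases 10 and 11 were both paired. The call rested on 1 isoform: isoforms 2 and 4 list the site in category 4, with p-values of 0.458 and 0.455.

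The HORVU3Hr1G095300 site spans positions 361 to 382 with the cut at 373, in category 2 with a p of 0.0289, an Allen score of 7.5 and a ratio of 0.840. It has 6 of 7 seed bases in Watson-Crick pairs and the other in a G:U pair, and 3 unpaired target bases directly before the listed cut. The same site is listed in ZD9 with the same name and position, but without values. The identical sequence lies in HORVU3Hr1G031770 isoform 1 (cut at 192), where XZ153 has category 4 and a p of 0.183. Pairing was thus equal at these 2 genes and the category was not. Reads from the identical stretch cannot be told apart between the 2 genes over that stretch.

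The p-values reflect the place of an alignment among those of its own small RNA. Decomposed into a category density and a whole-number rank, they gave ranks that followed the free energy ratio, which rose in 0 of 5283 ZD9 steps and 0 of 19862 XZ153 steps to the next higher rank. The Allen score fell, against the rank, in 1103 and 5505 of these steps. A low rank therefore means a site among the highest ratios of its own small RNA that also had degradome reads. The same rank can stand for different ratios under different names. In XZ153 osa-MIR444c-p3 had a ratio of 0.687 at rank 558, and osa-miR444d.3_2ss18GT21GT had 0.712 at rank 5141. In ZD9 0 of 330 miR444 records had a rank of at most 100 (up to 0.909%), beside 1.72% of all records. In XZ153 5 of 1002 did, a share of 0.499% (0.162 to 1.16), beside 1.88%.

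The best rank of a miR444 name was 158 in ZD9, for osa-miR444d.3_2ss18GT21GT, and 30 in XZ153, for the same name. In XZ153 hvu-miR444a followed at 36, osa-MIR444b-p5_2ss18CT19AT at 41 and osa-miR444a-3p.2_L+2 at 125, while hvu-miR444b had no listed site before rank 758. In ZD9 hvu-miR444b stood at 257, osa-miR444b.1 at 311 and hvu-miR444a at 1997. The order of names thus differed between the lists, which cover different transcripts. For comparison, 5.61% of all names in ZD9 and 12.2% in XZ153 had a listed site at rank 10 or better, and no miR444 name did. With only 12 miR444 names in ZD9 and 13 in XZ153, a count of 0 cannot be told from these shares.

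**Figure D1:**
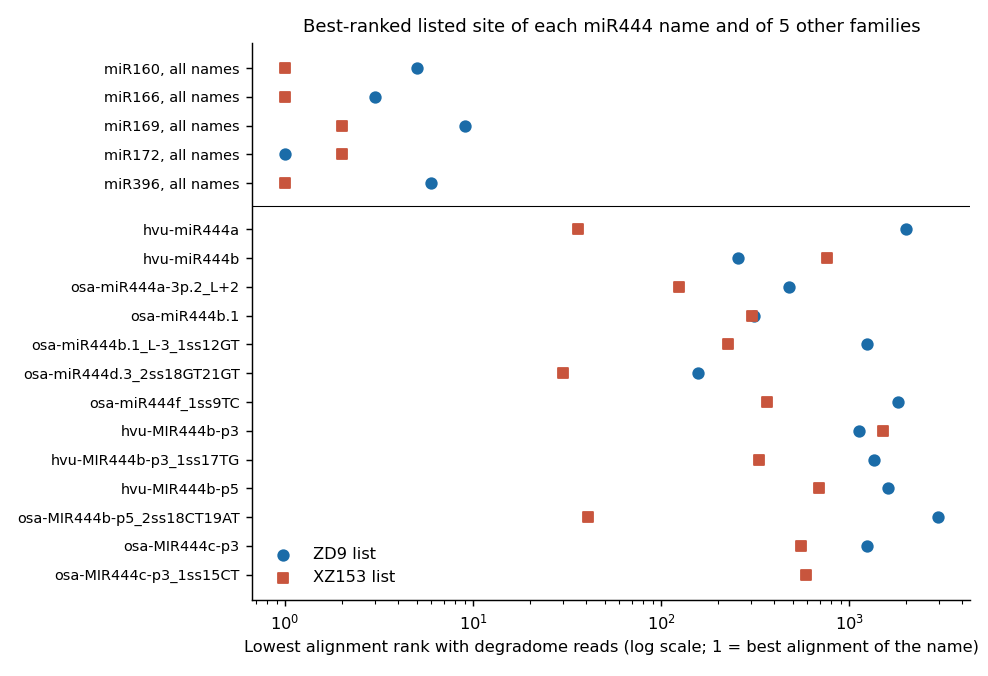
Lowest alignment rank with degradome reads for each of the 13 miR444 names and, above the line, over all names of 5 conserved families, in the ZD9 (circles) and XZ153 (squares) lists, on a log axis. The 5 conserved families sit at ranks 1 to 9 in both lists, and the miR444 names from 30 upwards.

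The 5 conserved families compared here gave much lower ranks in the same lists. The lowest rank was 5 in ZD9 and 1 in XZ153 for miR160, 3 and 1 for miR166, 9 and 2 for miR169, 1 and 2 for miR172, and 6 and 1 for miR396. miR160 is listed under 12 names in ZD9 and 13 in XZ153, as many as miR444, and had 3 supported records of 85 and 29 of 221. The other families have 16 to 25 names, and a family with more names has more chances of a low rank. These 5 families were picked for comparison with earlier results known, so the values are a description. Their highest free energy ratio was 1, except 0.934 for miR166 in ZD9. The highest ratio of a miR444 record was 0.824 in ZD9 and 0.912 in XZ153.

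**Figure D2:**
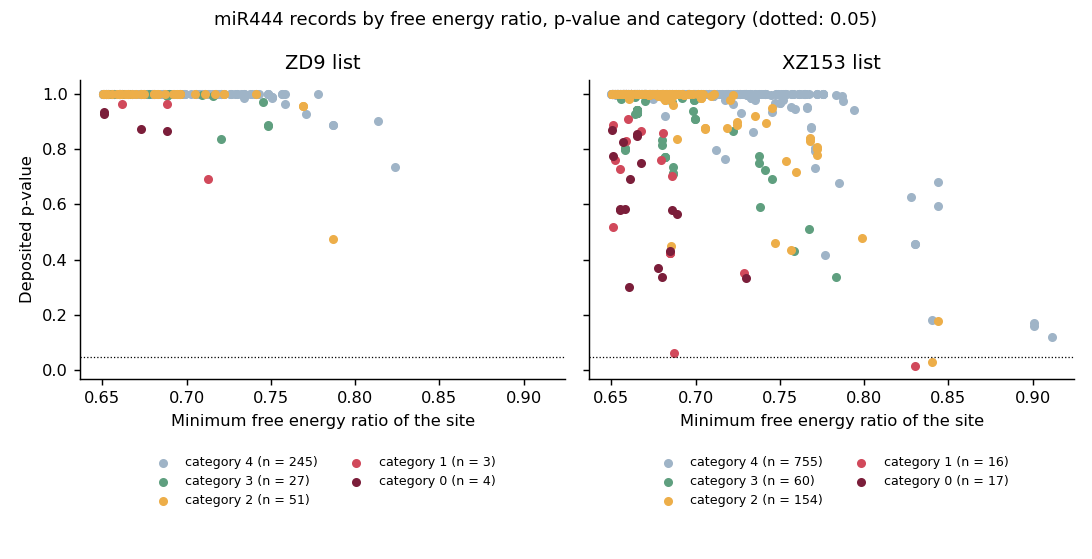
Deposited p-value against the minimum free energy ratio for the 330 miR444 records of ZD9 and the 1002 of XZ153, 1 point per record, coloured by category. The 2 points under the dotted line at 0.05 are the supported XZ153 sites at ratios of 0.830 and 0.840, and no ZD9 point lies under 0.476.

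The records with the next lowest p-values came from 3 genes under 3 names, 1 of which, osa-miR444d.3_2ss18GT21GT, also has a supported site. They are printed to show how close each came to a full match.
HORVU5Hr1G109600 isoform 1, osa-MIR444c-p3: aUUGCUGUgUCUAGgUgGCCG
HORVU7Hr1G031320 isoform 9, osa-miR444d.3_2ss18GT21GT: uGGGUUGCAAGAAAGCCACcu
HORVU2Hr1G064070 isoform 2, osa-MIR444b-p5_2ss18CT19AT: ccCGCGACUUGCAAGAAGg

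HORVU5Hr1G109600 had category 1 and a p of 0.0612 at rank 558, so its low p came with a rare category and a ratio of only 0.687. HORVU7Hr1G031320 was the reverse, with the best rank of the family (30), a ratio of 0.912 and an Allen score of 5.5, but category 4 and a p of 0.121. HORVU2Hr1G064070 had rank 41, a ratio of 0.901, category 4 and a p of 0.162. HORVU5Hr1G088680 followed with category 2 and a p of 0.177, and HORVU3Hr1G031770, described above, with 0.183. The next p-values were 0.302 for HORVU4Hr1G031280 and 0.335 for HORVU7Hr1G039480, both in category 0, and 0.338 for HORVU3Hr1G090870 in category 3.

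The pairing of the listed sites was looser than that of the lists as a whole. The Allen score had a median of 9.5 in both lists, against 8.5 over all records. A score of at most 4 was reached by 0 of 330 records in ZD9 (up to 0.909%, beside 3.68% of all records) and by 10 of 1002 in XZ153, a share of 0.998% (0.480 to 1.83) beside 3.74%. Those 10 records lie on 7 genes and all are in category 4. The interval for XZ153 and the limit for ZD9 both stay below the share of all records.

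**Figure D3:**
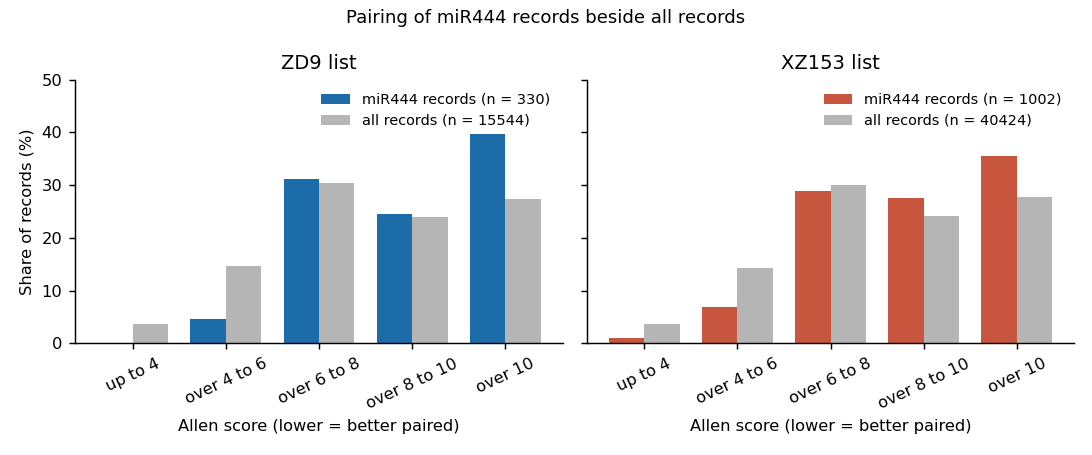
Share of records in 5 ranges of the Allen score, for miR444 records (coloured) beside all records (grey) of each list. Scores over 10 hold 39.7% of the miR444 records in ZD9 and 35.5% in XZ153, against 27.3% and 27.7% of all records.

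Other measures of pairing ran the same way. All 7 seed bases were Watson-Crick paired in 13 ZD9 records, 3.94% (2.11 to 6.64) beside 12.4% of all records. In XZ153 they were so in 66 records, 6.59% (5.13 to 8.30) beside 12.4%. Over the 5 comparison families this share ran from 3.53% (miR160) to 21.3% (miR396) in ZD9. In XZ153 it ran from 8.14% (miR166) to 26.2% (miR160). A low share was thus not particular to miR444 in ZD9. Bases 10 and 11 were both paired in 75.5% (70.4 to 80.0) of ZD9 records beside 81.8%, and in 79.2% (76.6 to 81.7) of XZ153 records beside 82.5%. Alignments without a gap made up 23.0% (18.6 to 28.0) beside 33.5% in ZD9, and 25.4% (22.8 to 28.3) beside 33.8% in XZ153. A ratio of at least 0.75 was found in 4.85% (2.80 to 7.75) beside 11.5% and in 7.19% (5.66 to 8.96) beside 12.3%. The median number of G:U pairs was 4 in both lists, against 3 over all records.

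Along the small RNA, the share of Watson-Crick pairs was above that of all records at bases 5, 13 and 14 in both lists. Base 5 was Watson-Crick paired in 84.8% of ZD9 records and 81.1% of XZ153 records, base 13 in 83.6% and 78.6%, and base 14 in 86.1% and 82.0%. Base 10, next to the cut, differed between the lists: it was paired so in 70.3% of ZD9 records, against 73.3% of all records, and in 79.2% of XZ153 records, against 73.0%. Base 1 was paired so in 36.7% and 37.0%, and was lowest in both lists. It was also the lowest base over all records, at 48.9% in ZD9 and 48.5% in XZ153. The records of a name share its bases, and a few names supply most records. Whether the profile follows the composition of those names was not tested.

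**Figure D4:**
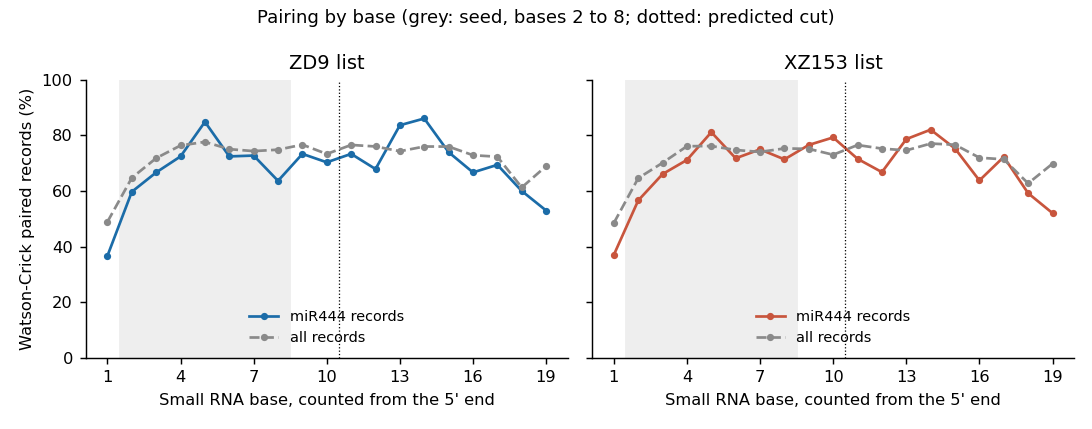
Share of records Watson-Crick paired at each small RNA base from the 5′ end, for miR444 records (solid) and all records (dashed) of each list, with the seed shaded and the predicted cut dotted. The miR444 line lies above the line for all records at bases 5, 13 and 14 in both lists and at bases 7, 9, 10 and 17 in XZ153 alone, and below it at the other bases.

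Sites of mature names with an Allen score of at most 4 were listed in XZ153 alone, all in category 4. The genes printed here lie beyond the last ID with values in ZD9, so that list could not give them a score. In the range both lists cover, XZ153 had 2 records at such a score, both under the arm osa-MIR444b-p5_2ss18CT19AT. No mature name reached it there in either list. They are shown because pairing alone would put them first.
HORVU4Hr1G090840 isoform 3, osa-miR444b.1_L-3_1ss12GT: uGCAaCAAGAUUGAGACA
HORVU4Hr1G013550 isoform 2, osa-miR444f_1ss9TC: AGGCUGcGGCAGCAACUGCu
HORVU4Hr1G012460 isoform 1 and HORVU5Hr1G073730 isoform 5, hvu-miR444a: GCAGAAGCUgGAGGCAGCGA

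HORVU4Hr1G090840 had the lowest Allen score of the family, 2, with all 7 seed bases paired, yet rank 2947. HORVU4Hr1G013550 scored 3.5 at rank 366 with a p of 0.793. HORVU4Hr1G012460 and HORVU5Hr1G073730 carry the same site at a score of 4, with p-values of 0.877 and 0.879. The next sites of mature names, at 4.5, include category 2 on HORVU3Hr1G092970 isoform 16 and HORVU5Hr1G062310 isoform 1. In ZD9 the lowest score was 5, for HORVU1Hr1G043110 under the mature name osa-miR444b.1_L-3_1ss12GT and for HORVU1Hr1G043440, HORVU1Hr1G052350 and HORVU2Hr1G003210 under the arm osa-MIR444b-p5_2ss18CT19AT, each at 1 read.

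The complement of the shared stretch, AAGCUUGAG, was searched in the listed target sequences on the transcript strand. It was found in 3 ZD9 records on 1 gene, HORVU0Hr1G011720, which were the only such records in that list (0.0193% of all records). In XZ153 it was found in 6 miR444 records on 3 genes, HORVU0Hr1G011720, HORVU2Hr1G074280 and HORVU5Hr1G023720, beside 0.0346% of all records, which came to 14. A site chosen by pairing to this stretch must hold it more often than others, so the difference from all records is no finding. All of these miR444 records were in category 4. The site with the lowest Allen score among them lies on isoforms 1, 13 and 15 of HORVU2Hr1G074280, under osa-miR444b.1, at 5.5.
HORVU2Hr1G074280: GGUAuCAAGCUUGAGACuuCA

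Of the 330 ZD9 records, 4 on 3 genes were in category 0, 3 in category 1, 51 in category 2, 27 in category 3 and 245 in category 4. Category 0 thus held 1.21% (0.331 to 3.07), beside 1.7% of all records, and category 1 0.909% (0.188 to 2.63), beside 1.51%. Category 4 held 74.2% (69.2 to 78.9), beside 66.2%. In XZ153 17 records on 16 genes were in category 0, 1.70% (0.991 to 2.70) beside 1.49%. A further 16 were in category 1, 1.60% (0.915 to 2.58) beside 1.77%, and 755 in category 4, 75.3% (72.6 to 78.0) beside 73.4%. The lowest p among the category 0 records of XZ153 was 0.302, for HORVU4Hr1G031280 under osa-miR444a-3p.2_L+2, at an Allen score of 13.

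ZD9 raw reads at miR444 sites were few: they summed to 502 of the 34935 in the list. A total of 245 records held 1 read, 49 held 2, 14 held 3, 10 held 4 and 12 held 5 to 9. The highest count was 9, against 346 over all records. Because isoforms repeat a cut, records of 1 gene with the same 14 bases around the cut were merged, which gave 193 cuts in ZD9 and 646 in XZ153. Only 15 ZD9 cuts had 4 or more reads on an isoform.

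**Figure D5:**
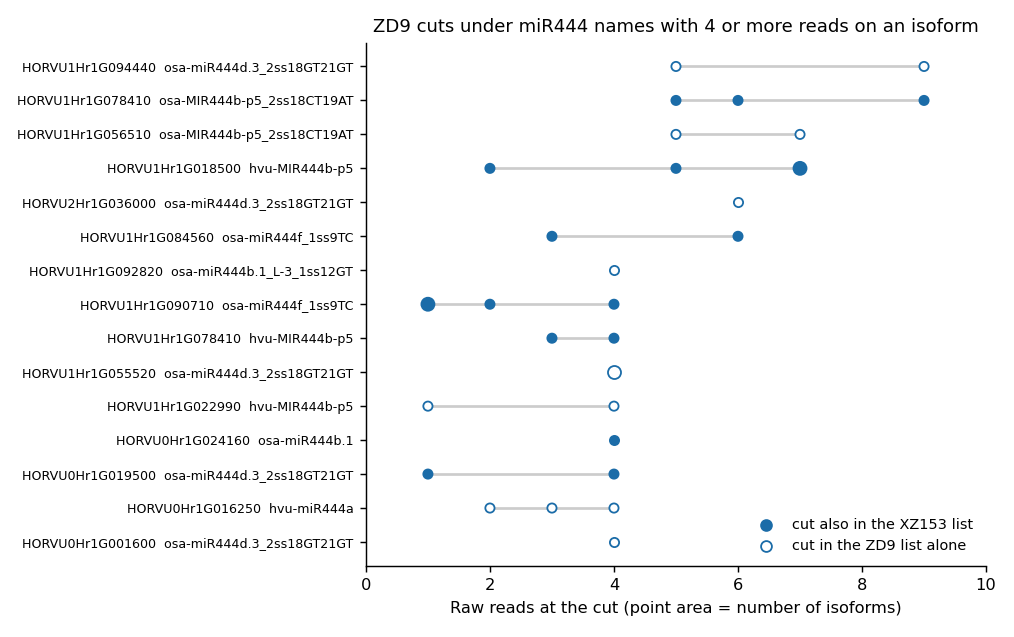
Raw reads in ZD9 at the 15 miR444 cuts with 4 or more reads on an isoform. There is 1 point per distinct read count, with area giving the number of isoforms. Filled points mark cuts also listed in XZ153 under a miR444 name. Counts at 1 cut span 2 to 7 between isoforms of HORVU1Hr1G018500 and 5 to 9 between isoforms of HORVU1Hr1G078410.

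The cuts with most reads differed in pairing, as 3 of their sites show.
HORVU1Hr1G094440 isoform 2, osa-miR444d.3_2ss18GT21GT: ccgucgGCGAGAAGGCCAagg
HORVU1Hr1G078410 isoforms 2 and 4, osa-MIR444b-p5_2ss18CT19AT: GGCACAGCUUCAAGAGcu
HORVU1Hr1G018500 isoform 4, hvu-MIR444b-p5: cGAGGCGGCAcaaaaACUGUACAuCa

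HORVU1Hr1G094440 had 9 reads on isoform 2, in category 0 with a p of 0.873 and an Allen score of 12.5, and 5 reads on isoform 1. It was not among the miR444 cuts of XZ153. HORVU1Hr1G078410 had 9, 5 and 6 reads on isoforms 2, 3 and 4, all in category 2, at an Allen score of 7.5. The same gene has a second cut under hvu-MIR444b-p5 with 3 and 4 reads, and XZ153 lists both cuts.

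HORVU1Hr1G018500 had 5, 7, 2 and 7 reads on isoforms 2, 4, 6 and 8. The ZD9 category was 2, 0, 2 and 0 in that order. XZ153 listed the same cut in category 0 on isoform 2 (p of 0.775) and category 1 on isoform 6 (p of 0.886). It was the single miR444 cut in category 0 or 1 in both lists, yet its Allen score was 16 and its ratio 0.651, next to the lowest value the lists hold, 0.65.

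HORVU1Hr1G056510 had 7 and 5 reads under osa-MIR444b-p5_2ss18CT19AT, HORVU1Hr1G084560 had 6 and 3 under osa-miR444f_1ss9TC, and HORVU2Hr1G036000 had 6 under osa-miR444d.3_2ss18GT21GT. The lowest ZD9 p belonged to HORVU1Hr1G091400 under hvu-miR444b, with 2 reads on isoform 3 (category 2) and 1 read each on isoforms 1 and 2. HORVU0Hr1G019500 under osa-miR444d.3_2ss18GT21GT had 4 reads on isoform 1, in category 1 with a p of 0.690, and 1 read on isoform 2; XZ153 lists that cut in category 4.

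Of the 193 ZD9 cuts, 47 on 45 genes were also listed in XZ153 under a miR444 name. This was 24.4% (18.5 to 31.0), beside 28.5% of all ZD9 cuts. The 47 made up 36.4% (28.1 to 45.4) of the 129 XZ153 cuts in the shared range, beside 43.1%. The shares over all cuts, here and below, count a cut listed in the other library under any small RNA name. They are thus a wider measure than the miR444 shares. All 47 carried the same small RNA name in both lists. Each list names at most 1 small RNA per transcript position, so a position is never listed under 2 names. Cuts with more reads recurred more: 26 of 59 ZD9 cuts with 2 or more reads on an isoform, 44.1% (31.2 to 57.6), were in XZ153, against 21 of 134 single-read cuts, 15.7% (9.97 to 23.0). Over all ZD9 cuts these shares were 44.6% and 18.6%, so recurrence rose with reads in the whole list too.

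No miR444 record in the range both lists cover was supported in either list. None of the 47 recurring cuts could therefore be supported, and this says nothing on recurrence. Their lowest p was 0.690 in each list, and their Allen scores ran from 6 to 16 with a median of 9. The best category was the same in both lists for 22 of the 47. In ZD9 21 of them were in category 4 on every isoform, and in XZ153 32 were. HORVU0Hr1G021610 under hvu-MIR444b-p5 was in category 4 in ZD9, with 1 read, and in category 0 in XZ153 with a p of 0.690.

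Counted as records with the same name, transcript and position, 36 were in both lists, 10.9% (7.76 to 14.8) of the ZD9 records beside 18.3%, and 19.8% (14.3 to 26.3) of the XZ153 records in range beside 34%. Of them 19 held 1 read in ZD9, 7.76% (4.73 to 11.8) of such records beside 9.87%. The other 17 held 2 or more, 20.0% (12.1 to 30.1) beside 34.7%. The share was higher by cut, where different isoforms with 1 cut count once.

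The most repeated miR444 site was a single sequence under osa-miR444b.1, at an Allen score of 6.5, listed on 9 genes in XZ153 and on 2 in ZD9.
Repeated osa-miR444b.1 site: GGCGacGgAAGUUUGAGGCAAUA

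It had 4 reads in category 3 on HORVU0Hr1G024160 and 1 to 3 reads on isoforms of HORVU1Hr1G027000 in ZD9, and both genes list it in XZ153 as well. The other XZ153 genes with this site lie beyond the IDs with values in ZD9. In the range both lists cover, the genes were the same. Reads from identical stretches of several genes cannot be told apart over that stretch, so the 9 genes are not 9 separate observations. In all, 20 sites in XZ153 and 7 in ZD9 were shared by 2 or more genes. The XZ153 number takes in its whole list and the ZD9 number only records with values, so they cannot be compared.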

How the data were processed

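The deposited tables, 1 per library, are output of CleaveLand, which predicts small RNA targets and counts degradome reads at each predicted cut. The sources used here do not give the aligner, the transcript release or the build. Per the file headers, ZD9 has a deposited raw read count per site. The deposited category, normalised reads and Allen score were treated as scores. The deposited p-value is the authors' own and unadjusted. The deposited minimum free energy ratio is a fraction of the energy of a perfect match. Positions are the authors' transcript coordinates, counted from 1 as deposited.

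Records with miR444 in the name were taken as members. The members and lists were chosen with earlier results of these data known. Isoforms were merged to the gene, and a cut was defined by the gene and 14 listed target bases, 6 before and 8 from the cut. ZD9 values end at an early ID, after which 1941 records, 45 of them miR444, have no values. A further 3 ZD9 and 20 XZ153 lines are not analysed here. The counts of 182 XZ153 records on 116 genes and the shares of cuts and records in both lists use the IDs both cover. Other XZ153 values, unless said otherwise, come from its whole list. Ranks came from −ln(1 − p) as whole multiples of 1 unit per category and list, a step tested on simulated data. Genes were named from those supported, in both lists, or among the lowest Allen scores, the lowest p-values or the highest read counts. Not every such gene is named. Of genes in both lists only some are named, not all of those with a category 0 or 1, and the rest are counted. Sites with the shared stretch or repeated on several genes were named after their values were seen. No reference table used here annotates the gene IDs, so MADS-box genes were not picked out. No read is known to be an independent molecule. Alternatives were the pairing limits, the p limit, the category, the ID range, mature names alone and merging by cut. Python 3.11.15, pandas 2.3.3 and scipy 1.17.1 were used.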

Additional observations from a re-analysis of the deposited data

How the results depend on the processing

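Of 31 alternative counts, 15 stayed within 1.5 times the reported one and 16 did not. Requiring an Allen score of at most 4 left 0 records on 0 genes in ZD9, and 2 records on 2 genes in XZ153 over the shared range. Requiring a free energy ratio of at least 0.75 left 16 records on 10 genes in ZD9 and 7 records on 6 genes in XZ153. Taking the whole XZ153 list raised its records to 1002 and its genes to 583. The 2 supported XZ153 genes fell to 0 with an Allen score of at most 4, to 0 in the shared range, to 0 at a p of at most 0.01, and to 0 with category 0 alone; the supported count in ZD9 was 0 throughout. The 36 records in both lists became 81 over the whole XZ153 list with ZD9 records without values included, and 22 with mature names alone. Every ZD9 record without values has a match in XZ153, so the rise to 81 is no measure of recurrence. By construction each of these alternatives keeps fewer or more records. No paired analysis was possible because each cultivar has 1 library. The unknown depth and single reads at most sites limit what could be detected.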

Other observations

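The ZD9 list holds 45 miR444 records on 32 genes that carry a site and a name but no values, beyond the last ID with values. All 45 are in XZ153 under the same name and position, as are all 1941 ZD9 records of that kind. Among ZD9 records with values the share was 18.3%. Since every record without values has a match, such a match is no measure of recurrence. In XZ153 1 of the 45 was in category 0, 4 in category 2, 1 in category 3 and 39 in category 4. Their lowest Allen score there was 4.5. Their lowest p there was 0.0289, at the hvu-miR444a site of HORVU3Hr1G095300. Thus 1 of the 2 supported sites is named in both cultivars' lists, while its reads in ZD9 were not analysed here. For the reason given above, that listing does not show that the cut recurred.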
